A study of Mus musculus with 21 samples.

Results

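The genes described here are 9 that are tied to T cell anergy, the unresponsive state a T cell enters when its T cell receptor (TCR) signals without full costimulation. They are the E3 ubiquitin ligases Cblb, Itch and Rnf128, the diacylglycerol kinases Dgka and Dgkz, the surface proteins Nrp1, Nt5e and Izumo1r, and Ndrg1. They were chosen by name, with earlier results of these data known, and all 9 are among the 47643 genes of the count table. Of these, 8 had at least 10 counts over the 21 libraries and were tested, as 8 of 15300 genes over that limit, and the remaining member, Rnf128, was too low to test.

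All mice were Tg4 Tiger Nr4a3-Tocky. Tg4 is a transgenic TCR for a myelin basic protein (MBP) peptide, Tiger reports Il10 with GFP, and Tocky places a Timer protein under Nr4a3, a target gene of TCR signalling; the Timer fluoresces blue at first and matures to red. There were 7 groups of 3 mice: an untreated control, and mice given 0.8 or 80 µg of [4Y] MBP peptide under the skin without adjuvant and killed 4, 12 or 24 h later. CD4+ T cells were sorted from the spleen and their RNA was sequenced from the 3′ end. The sort followed the Timer, and took Nr4a3-Blue+Red- cells at 4 h, Blue+Red+ cells at 12 h and Blue-Red+ cells at 24 h, so that time and gate cannot be told apart; the gate of the control cells is not given in the sources used here. As a model the cells share a single transgenic TCR in place of a mixed repertoire. Both sexes were used, and ages are not given in the labels.

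Anergic CD4+ T cells are known for brakes placed at several points of TCR signalling. The ligases attach ubiquitin to signalling proteins such as phospholipase C-γ1 and protein kinase C-θ. The kinases turn diacylglycerol, the lipid messenger that recruits the Ras activator RasGRP1, into phosphatidic acid. Izumo1r (folate receptor 4) and Nt5e (CD73, which makes adenosine outside the cell) mark anergic CD4+ cells together, and both, like the semaphorin and growth factor co-receptor Nrp1, are also found on regulatory T cells. Ndrg1 is a stress-regulated cytosolic protein that has been tied to anergy in the absence of CD28 costimulation.

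Library totals ran from 2352800 to 6244279 counts over the 21 libraries. Normalised read counts below are counts divided by the library's size factor, with mean ± SD over 3 mice. A difference was called when the DESeq2 adjusted p was under 0.05 and the shrunken log2 fold change was over 1 in size, the thresholds of the study's methods. Log2 fold changes are shrunken values ± SE unless stated. Replicates are separate mice. Replicate 3 of 0.8 µg at 12 h stood apart from its group: the chi-square of its counts against its group mates was 14.4 and 14.8 per gene, against 3.35 to 9.49 for the other pairs within a group. Gm42418, a gene model that overlaps ribosomal RNA sequence, took 25.7% of its counts, against 17% and 18.2% in its group mates. That share was 24% to 24.7% in the control, 18.1% to 22.8% at 4 h, 17% to 25.7% at 12 h and 23.3% to 27.8% at 24 h, and its part in the results was not tested. Cd3e and Cd4, the defining markers of the sorted cells, were present in all groups, with Cd4 at 46.4 to 73.4 CPM (counts scaled to the library total) with 80 µg at 4 h and at 139 to 334 CPM in the other groups. Siglech and Ncr1, which define plasmacytoid dendritic and natural killer cells, had at most 2 counts in a library. Cd8a was at 14.3 to 17.8 CPM with 0.8 µg at 12 h and at most 3.96 CPM elsewhere.

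Positions are those of GENCODE on GRCm38 and span exons and introns of each protein-coding gene. Cblb is at chr16:52031225-52208048, Itch at chr2:155133509-155226855, Rnf128 at chrX:139563316-139673145, Dgka at chr10:128720134-128744855 and Dgkz at chr2:91932824-91975864. Nrp1 is at chr8:128358604-128503363, Nt5e at chr9:88327197-88372092, Izumo1r at chr9:14885814-14903949 and Ndrg1 at chr15:66929318-66969640. The genes whose exons overlap those of a member (Pmel with Dgka, Gm9821 with Dgkz, Mir1903 with Nrp1, Gm17035 and Gm2895 with Ndrg1) had at most 2 counts in any library.

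Promoter sequence from RefSeq (GRCm38.p6) matched 7 of the 9 genes, without Itch and Ndrg1. The 250 bases before the start site were searched on both strands for AP-1 (TGANTCA), forkhead (GTAAACA), NFAT (TGGAAA), NR4A (AAAGGTCA) and EGR (GCGNGGGCG) letters. Dgka and Izumo1r each held 1 NFAT match, beginning 106 and 197 bases before the start site, and the other 5 genes held none of these strings. Each gene was searched at 1 start site, the RefSeq entry nearest the 5′ end of the GENCODE gene, of 4 entries for Dgka and 2 for Dgkz. That site lay 47304 bases inside the gene for Rnf128 and 12301 for Dgkz, 182 to 469 bases inside it for Cblb, Nrp1, Nt5e and Izumo1r, and 229 bases before it for Dgka, and other start sites were not searched. Of 32851 RefSeq windows of this length, 18.6% held the NFAT letters, 6.75% those of AP-1, 3.17% forkhead, 1.34% NR4A and 4.7% EGR. The 3 sequences shown are those of the 2 genes with a match and, beside them, of Nrp1, the gene with the largest dose difference at 4 h. They were chosen after the values were seen, leave out annotated exons, run 5′ to 3′ on the gene's strand, and have motif matches in capitals. TTTCCA is the NFAT string on the other strand. Dgka is chr10:128745085-128745334 on the minus strand, Izumo1r chr9:14903950-14904017 on the minus strand and Nrp1 chr8:128358823-128359072 on the plus strand.
Dgka: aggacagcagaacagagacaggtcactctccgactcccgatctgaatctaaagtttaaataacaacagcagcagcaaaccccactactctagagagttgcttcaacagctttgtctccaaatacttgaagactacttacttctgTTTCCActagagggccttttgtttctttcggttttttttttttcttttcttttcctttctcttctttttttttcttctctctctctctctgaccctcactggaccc
Izumo1r: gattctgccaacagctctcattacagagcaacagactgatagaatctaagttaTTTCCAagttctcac
Nrp1: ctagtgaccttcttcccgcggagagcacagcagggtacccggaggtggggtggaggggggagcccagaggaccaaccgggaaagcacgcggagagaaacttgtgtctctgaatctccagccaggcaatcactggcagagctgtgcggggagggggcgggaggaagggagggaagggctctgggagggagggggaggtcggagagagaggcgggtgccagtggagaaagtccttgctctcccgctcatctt

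Which of these genes differed from the untreated control was read from each group against it, and the dose question from 80 µg against 0.8 µg at the same time. The comparisons with control share the control mice. Since the immunised cells were sorted by Timer and the gate of the control is not given, peptide and gate cannot be told apart in them. In bulk samples, fewer cells of a type and less RNA per cell cannot be told apart. At 4 h, 6 of the 8 tested genes were called with 0.8 µg, where 40.7% of all tested genes were called, and 7 of 8 with 80 µg, where 43.5% were. At 12 h the counts were 3 of 8 with 0.8 µg (37.7% of all genes) and 5 of 8 with 80 µg (37.9%). At 24 h they were 3 of 8 (17.3%) and 1 of 8 (20.2%). The median log2 fold change of the 8 genes against control at 4 h was -0.92 with 0.8 µg and -0.98 with 80 µg, beside -0.13 and -0.15 over all genes.

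**Figure D1:**
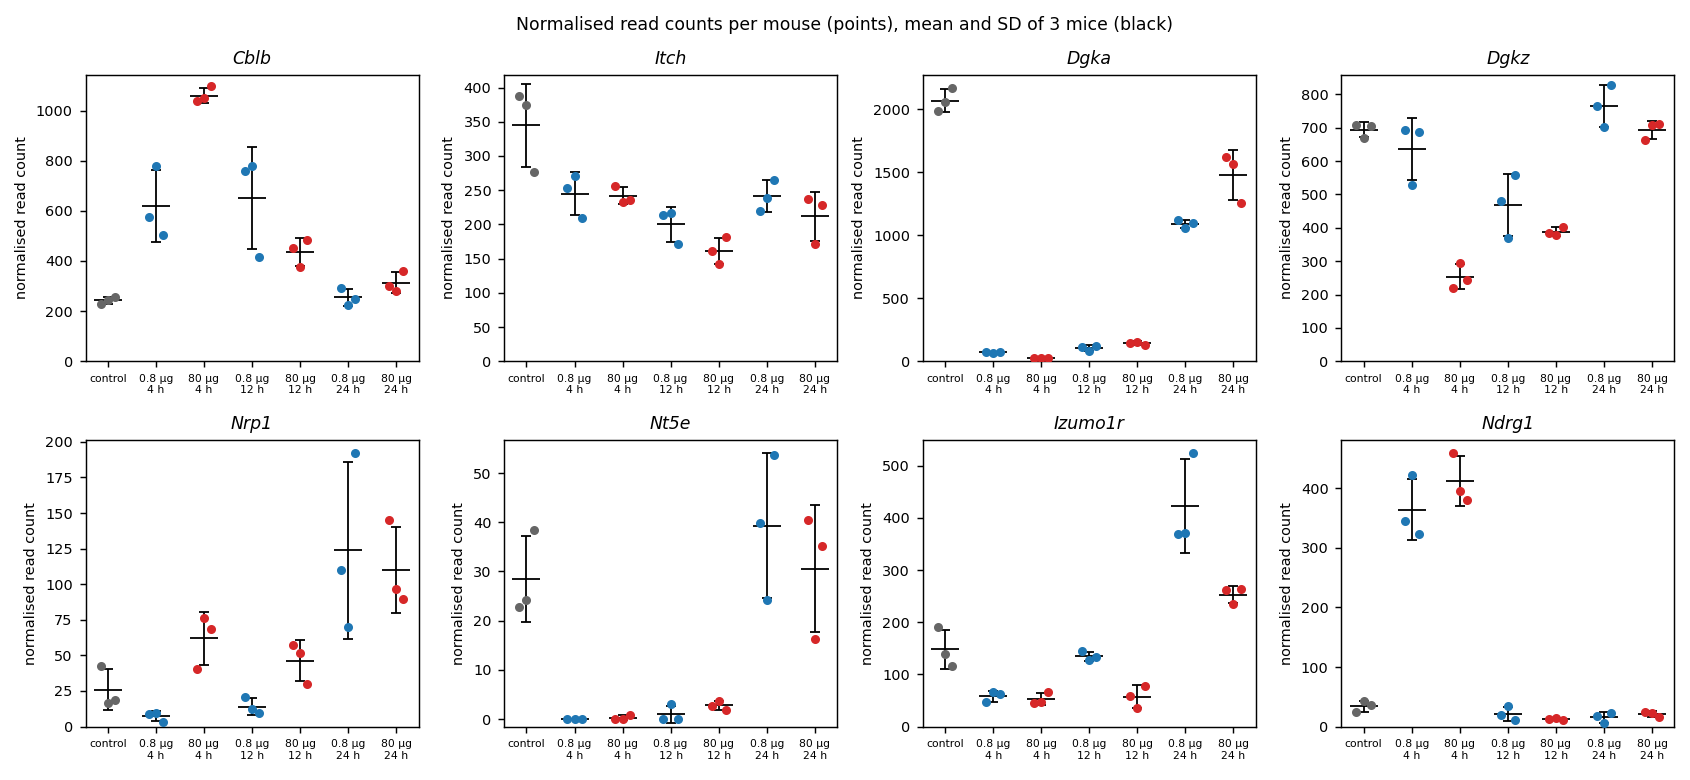
Normalised read counts (vertical axes, from 0) of 8 genes in each of the 7 groups (horizontal axes). Points are single mice, grey for control, blue for 0.8 µg and red for 80 µg, and black marks give the mean and SD of 3 mice. Ndrg1 peaked at 4 h, at 324 to 459 counts, whereas Dgka and Nt5e were lowest at 4 h and higher again at 24 h.

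Between doses, 3 of 8 genes were called at 4 h, where 5.85% of all genes were: Dgka and Dgkz were lower and Nrp1 was higher with 80 µg. At 12 h, 2 of 8 were called, against 2.79% of all genes, with Nrp1 higher and Izumo1r lower at the high dose. At 24 h, 0 of 8 were called by DESeq2, against 1.56% of all genes. At that time 2 of the 8 had an unadjusted p under 0.05, Dgka and Izumo1r, and edgeR also called 0. Both genes also had an adjusted p under 0.05 (0.00384 and 0.017) and missed only the fold threshold. The median size of the log2 difference over the 8 genes was 0.52, 0.64 and 0.32 at 4, 12 and 24 h, beside 0.26, 0.23 and 0.21 over all genes tested.

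A dose effect that changes with time was tested by itself, as the dose-by-time term of a likelihood ratio test on the 18 immunised mice. It passed for 4 of the 8 genes (Cblb, Dgka, Dgkz and Nrp1), where 10.3% of all genes passed. Izumo1r missed it with an adjusted p of 0.0514, Ndrg1 had 0.174, Nt5e 0.643 and Itch 0.711. The plot of dose differences shows the 3 times side by side for each gene.

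**Figure D2:**
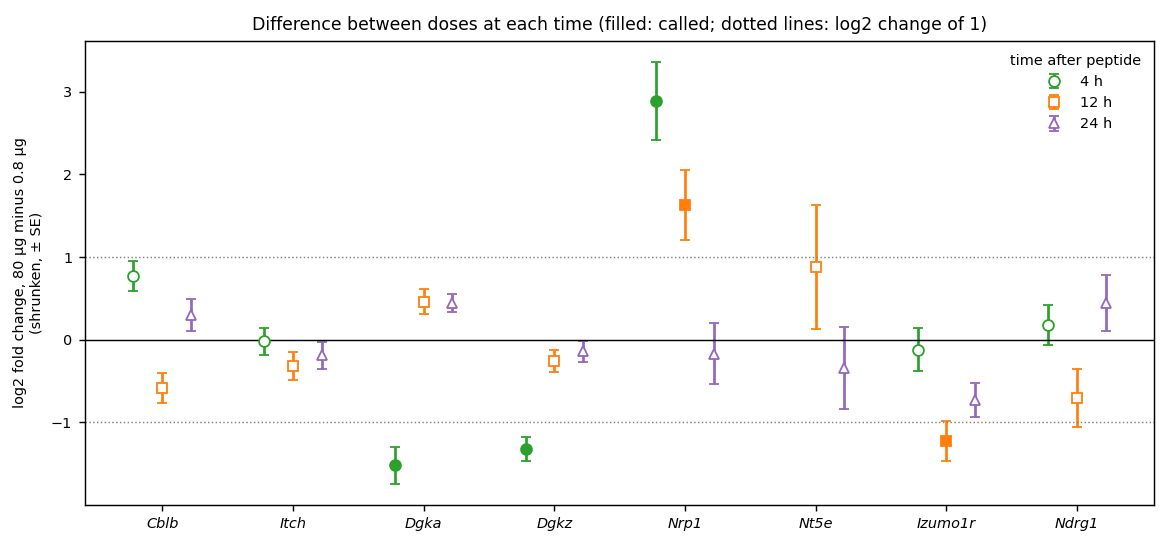
Shrunken log2 fold change of 80 µg against 0.8 µg (vertical axis, ± SE) for 8 genes, with green circles for 4 h, orange squares for 12 h and purple triangles for 24 h. Filled symbols were called and dotted lines mark a log2 change of 1; Nt5e at 4 h is left out because both groups held at most 1 count in a library. Nrp1 stood at 2.89 at 4 h and Dgka at -1.52.

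Among the ligases, Cblb, which restrains TCR and CD28 signals, rose with both doses. The 3 control mice had 229, 243 and 257 normalised counts, and at 4 h the mice had 577, 781 and 503 with 0.8 µg and 1040, 1050 and 1100 with 80 µg. No mouse of the 80 µg group overlapped the 0.8 µg group. The change from control at 4 h was 1.34 ± 0.19 (adjusted p = 4.44e-12) with 0.8 µg and 2.11 ± 0.19 (adjusted p = 5.34e-29) with 80 µg. Between doses at 4 h it was 0.77 ± 0.18, with an adjusted p of 0.000347 and under the fold threshold.

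At 12 h the doses overlapped. Cblb then stood at 760, 778 and 417 with 0.8 µg and at 450, 375 and 482 with 80 µg, and the 417 of the mouse that stood apart lay inside the high dose range. Cblb with 80 µg had fallen by 1.28 on the log2 scale from 4 h (adjusted p = 1.98e-11), whereas with 0.8 µg it differed by 0.08 ± 0.18 (adjusted p = 0.787). The dose difference at 12 h was -0.58 ± 0.18 (adjusted p = 0.0269), under the fold threshold, and it rested on single mice. It was -0.82 (adjusted p = 1.25e-05) without replicate 3 of 0.8 µg at 12 h, but -0.46 (adjusted p = 0.235) and -0.43 (adjusted p = 0.278) without replicate 1 or 2 of that group and -0.48 (adjusted p = 0.199) without replicate 2 of 80 µg at 12 h. Without replicate 1 or 2 of every group it was -0.48 (adjusted p = 0.478) and -0.33 (adjusted p = 0.78).

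By 24 h Cblb was at 292, 224 and 249 with 0.8 µg and at 300, 282 and 361 with 80 µg. The 0.8 µg mice overlapped the control, and the 80 µg mice lay above its 3 values. The change from control was 0.07 ± 0.19 (adjusted p = 0.817) and 0.37 ± 0.19 (adjusted p = 0.106). Scaled to CPM, the 80 µg mice overlapped the control, at 74.3, 71.5 and 93.8 against 68.3, 73.2 and 76.5. The dose effect on Cblb differed between times, with an adjusted p of 5.01e-05 and a span of 1.35 log2 units from lowest to highest. That adjusted p was 0.0422 without replicate 1 of every group.

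Itch, a HECT-type ligase, was highest in the control, at 387, 374 and 276, and its control range lay above that of every immunised group. The lowest values were those of 80 µg at 12 h, with 161, 142 and 181, and this was its only call against control (-1.1 ± 0.16, adjusted p = 1.09e-10). Without replicate 1 or 2 of every group that value was -1 and -0.94, no longer past the fold threshold. The other 5 groups had means of 200 to 245 and log2 changes of -0.5 to -0.78, with adjusted p of 0.00499 or less. Of these, the 4 changes at 4 and 24 h had an adjusted p over 0.05, of up to 0.289, when replicate 1 or 2 of every group was left out, except that of 80 µg at 24 h without replicate 1. Between doses Itch was not called at any time, and the unshrunken 95% interval of the difference was -0.34 to 0.31 at 4 h, -0.65 to 0.01 at 12 h and -0.51 to 0.13 at 24 h.

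Rnf128, the ligase known as GRAIL, gave 8 counts over all 21 libraries and at most 2 in a library. A count of 0 allows up to 3 counts, and every library was under that floor, so no fold is given and no difference was detectable at this depth.

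The ligase kin and adaptors were described as a list of 16 genes, all over the count limit. At 4 h, 4 of the 16 were called between doses, beside 5.85% of all genes. Peli1, a ligase that limits T cell activation, averaged 798 ± 159 with 0.8 µg and 2470 ± 287 with 80 µg (1.62 ± 0.14, adjusted p = 8.18e-28), and the control stood at 2470 ± 71.6. Rnf125 was also higher with 80 µg, at 16.6 ± 5.24 against 3.92 ± 2.26 with 0.8 µg (1.76 ± 0.49, adjusted p = 0.0043). Both doses were called below its control of 115 ± 15.4, and no 0.8 µg library held more than 5 counts of it. Dtx1, a ligase of the Notch pathway with a known place in anergy, went the other way, from 64.3 ± 16.8 to 15.1 ± 5.58 (-2 ± 0.26, adjusted p = 1.35e-12), as did Nedd4l (-1.35 ± 0.48, adjusted p = 0.0425). Dtx1 and Nedd4l were also called below control with both doses, from control means of 476 ± 31.2 and 94 ± 22.2. At 12 and 24 h, 0 of the 16 were called between doses by DESeq2 or edgeR, beside 2.79% and 1.56% of all genes by DESeq2. Of the 16, 3 had an unadjusted p under 0.05 at each time. At 4 h edgeR called 3.

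The diacylglycerol kinase Dgka, which is high in resting T cells, had the widest range of the 7 genes that had counts in every group, Nt5e and Rnf128 aside. Control mice had 1990, 2060 and 2170 normalised counts. At 4 h these were 76.7, 65.9 and 70.1 with 0.8 µg and 23.1, 22.3 and 26.6 with 80 µg, so that the 3 groups were far apart. Dgka was 29.2-fold lower than control with 0.8 µg (-4.84 ± 0.15, adjusted p = 4.78e-223) and 86.4-fold lower with 80 µg (-6.36 ± 0.2, adjusted p = 3.93e-222). The high dose was 2.95-fold below the low dose (-1.52 ± 0.22, adjusted p = 2.36e-10).

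Dgka then rose again with both doses. At 12 h the mice had 114, 81.2 and 121 with 0.8 µg and 145, 156 and 127 with 80 µg. At 24 h they had 1120, 1060 and 1100 with 0.8 µg and 1620, 1570 and 1260 with 80 µg. At both times every 80 µg mouse was above every 0.8 µg mouse and below every control mouse. The dose differences were 0.46 ± 0.15 at 12 h (adjusted p = 0.0328) and 0.44 ± 0.11 at 24 h (adjusted p = 0.00384), both under the fold threshold. Without replicate 2 of every group they were 0.22 (adjusted p = 0.974) and 0.37 (adjusted p = 0.214), and without replicate 2 of 0.8 µg at 12 h the first was 0.28 (adjusted p = 0.456). The rise from 12 to 24 h was 10.4-fold with either dose (adjusted p = 7.62e-134 and 1.24e-151), and the span of the dose effect was 1.98 (adjusted p = 3.94e-13).

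Dgkz, the other kinase that limits diacylglycerol in T cells, moved less. Control values of 709, 668 and 704 were overlapped by the 692, 528 and 688 of 0.8 µg at 4 h. With 80 µg the mice had 221, 294 and 243, below all mice of every other group. The difference was -1.32 ± 0.14 between doses (adjusted p = 9.35e-20) and -1.45 ± 0.14 against control (adjusted p = 6.82e-25), whereas 0.8 µg against control gave -0.12 ± 0.13 (adjusted p = 0.458).

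At 12 h Dgkz had 479, 371 and 558 with 0.8 µg and 386, 378 and 403 with 80 µg, and the doses overlapped (-0.26 ± 0.13, adjusted p = 0.294). At 24 h it had 765, 702 and 829 with 0.8 µg and 662, 709 and 710 with 80 µg, around the control level. The dose effect differed between times (span 1.18, adjusted p = 5.8e-08).

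Of the 8 other diacylglycerol kinases listed, 5 were over the count limit and 0 were called between doses by DESeq2 or edgeR at any time, beside 5.85%, 2.79% and 1.56% of all genes at 4, 12 and 24 h, with an unadjusted p under 0.05 for 0 of 5 at 4 h, 1 of 5 at 12 h and 1 of 4 at 24 h. The list of 11 genes of diacylglycerol and CD28 signalling, the partners these kinases act on, held 3 calls between doses at 4 h, all lower with 80 µg, beside 5.85% of all genes. At 12 and 24 h, 0 of the 11 were called by DESeq2 or edgeR, beside 2.79% and 1.56% of all genes by DESeq2. Of the 11, 5 and 4 had an unadjusted p under 0.05. At 4 h Rasgrp1, the Ras activator that binds diacylglycerol, fell from 491 ± 37.3 with 0.8 µg to 124 ± 17 with 80 µg (-1.98 ± 0.15, adjusted p = 7.05e-39), with the control at 1010 ± 32.5. At 12 h Rasgrp1 was still lower with 80 µg, at 133 ± 11.5 against 227 ± 43.2 (-0.78 ± 0.15, adjusted p = 1.05e-05), under the fold threshold. Rasgrp2, which acts on Rap1, stood at 30.7 ± 9.14 and 13 ± 9.83 at 4 h (-1.24 ± 0.3, adjusted p = 0.000486). Its 24 h means went the other way, 442 ± 66.2 for 0.8 µg and 841 ± 78.6 for 80 µg (0.93 ± 0.14, adjusted p = 2.62e-09), under the fold threshold. Plcg1, which encodes the phospholipase that makes diacylglycerol, stood at 172 ± 18.4 and 83.7 ± 12.4 at 4 h (-1.02 ± 0.16, adjusted p = 1.92e-08). Against control 7 of the 11 were called at 4 h with each dose and all 7 were lower, where 40.7% and 43.5% of all genes were called in either direction.

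**Figure D3:**
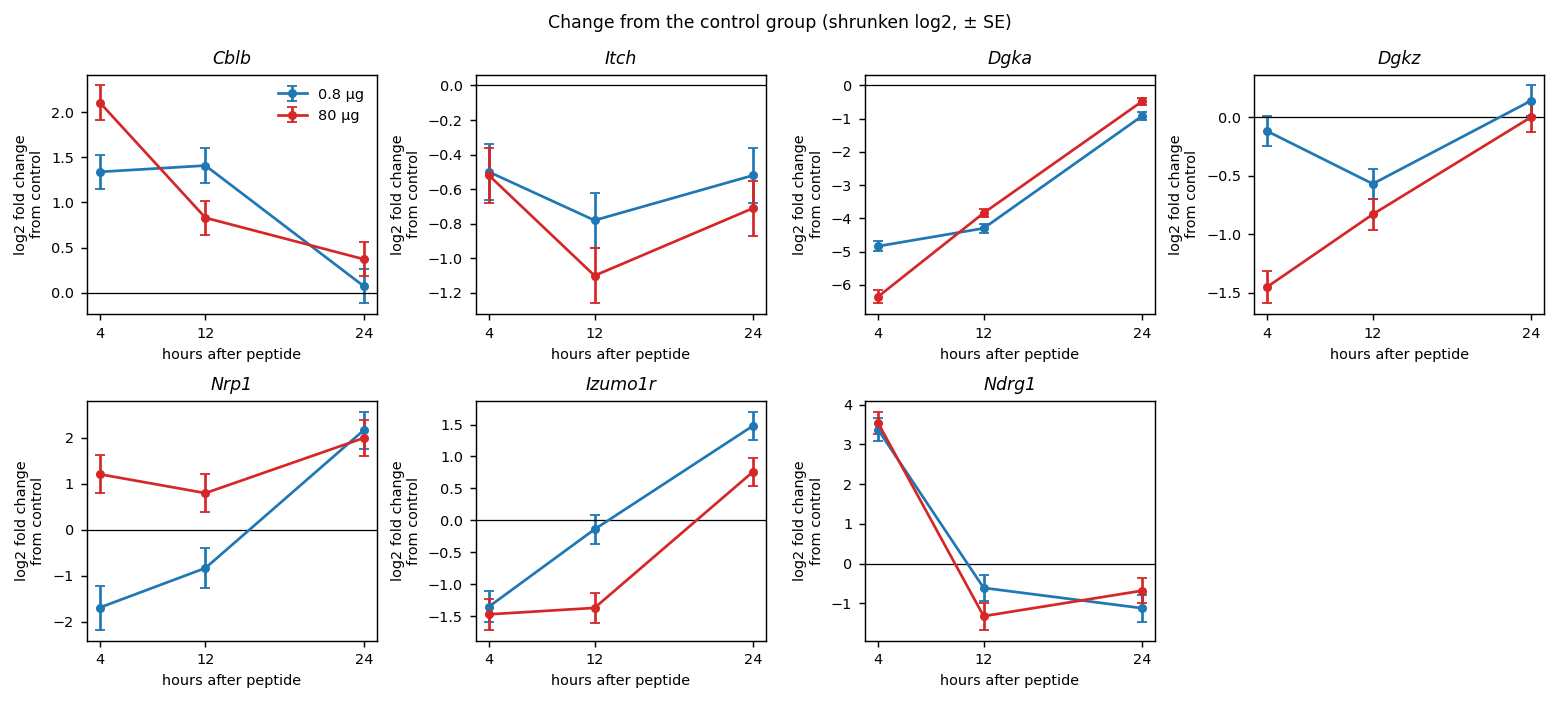
Shrunken log2 fold change from control (vertical axes, ± SE) at 4, 12 and 24 h (horizontal axes) for 7 genes, blue for 0.8 µg and red for 80 µg; vertical scales differ between panels. For Dgka the 4 h values were -4.84 and -6.36 and those of 24 h -0.92 and -0.48, Ndrg1 was above control only at 4 h, and Nrp1 was on opposite sides of control at 4 h.

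Among the surface proteins, Nrp1 had the largest dose difference. At 4 h the mice had 9.08, 9.22 and 3.24 with 0.8 µg and 40.5, 76.5 and 68.6 with 80 µg, and the control mice had 42.3, 16.2 and 18.6. The low dose lay below all control mice, and the high dose lay above all but 1 of them. Nrp1 was 8.62-fold higher with 80 µg (2.89 ± 0.47, adjusted p = 4.01e-08). The low dose side of this fold rested on raw counts of 9, 7 and 3, the last at the floor of 3 counts.

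Against control Nrp1 was called in opposite directions at 4 h, at -1.69 ± 0.48 with 0.8 µg (adjusted p = 0.00113) and 1.21 ± 0.41 with 80 µg (adjusted p = 0.00654). Both calls were lost when a control mouse was left out. Without control replicate 1 the first was -1.18 (adjusted p = 0.0519), and without control replicate 2 the second was 0.95 (adjusted p = 0.0593).

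At 12 h Nrp1 had 20.6, 12 and 9.39 with 0.8 µg and 57.6, 51.4 and 30.1 with 80 µg, and the doses did not overlap (1.63 ± 0.42, adjusted p = 0.00382). Without replicate 2 of every group the difference was 1.4 (adjusted p = 0.175). Neither dose was called against control at that time. With 80 µg the change was 0.8 ± 0.41 (adjusted p = 0.087), and it was called without control replicate 1 (1.33, adjusted p = 0.00867) or replicate 3 of its own group (1.02, adjusted p = 0.0407). With 0.8 µg it was -0.83 ± 0.44 (adjusted p = 0.1), and it was called without replicate 1 of its own group (-1.12, adjusted p = 0.0406) or control replicate 2 (-1.08, adjusted p = 0.0486).

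At 24 h Nrp1 had 110, 69.9 and 192 with 0.8 µg and 145, 96.4 and 89.4 with 80 µg, all above every control mouse and overlapping between doses (-0.17 ± 0.37, adjusted p = 0.884). Against control Nrp1 was 2.17 ± 0.4 with 0.8 µg (adjusted p = 7.22e-07) and 2 ± 0.4 with 80 µg (adjusted p = 5.01e-06). The dose effect on Nrp1 had the widest span of the 4 genes that passed the dose-by-time test, 3.06 (adjusted p = 5.88e-06). That adjusted p was up to 0.0348 when samples were left out.

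Nt5e was all but absent at 4 h. Raw counts were 22, 24 and 27 in the control mice, 0 in the 3 mice with 0.8 µg, and 0, 0 and 1 with 80 µg. Against the floor of 3 counts per library, Nt5e was at least 8.37-fold lower than control with 0.8 µg and at least 9.56-fold lower with 80 µg (adjusted p = 1.62e-07 and 3.21e-06). At 12 h the raw counts were 0, 4 and 0 with 0.8 µg and 3, 5 and 2 with 80 µg, still below every control mouse. The change from 4 to 12 h with 80 µg was not called (adjusted p = 0.0609), but it was without the mouse with 1 count at 4 h (adjusted p = 0.0439).

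By 24 h Nt5e was back at 39.9, 24.2 and 53.7 normalised counts with 0.8 µg and at 40.5, 16.2 and 35.1 with 80 µg, overlapping the control range of 22.7 to 38.5. The change from control was 0.45 ± 0.51 (adjusted p = 0.54) and 0.11 ± 0.51 (adjusted p = 0.904). Nt5e was not called between doses, with unshrunken 95% intervals of -0.73 to 3.21 at 12 h and -1.41 to 0.68 at 24 h, both of which hold log2 differences over 1 in size.

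Izumo1r had 190, 139 and 116 in the control and 46.4, 65.9 and 61.5 with 0.8 µg and 45.1, 46.5 and 66 with 80 µg at 4 h. It was called lower than control with both doses (-1.35 ± 0.24, adjusted p = 1.49e-07 with 0.8 µg and -1.47 ± 0.24, adjusted p = 6.78e-09 with 80 µg), and the doses overlapped (-0.12 ± 0.26, adjusted p = 0.875). At 12 h the low dose was back in the control range, with 144, 127 and 133, and the high dose was not, with 59.4, 35.2 and 77.8. That difference was -1.22 ± 0.24 (adjusted p = 1.83e-05), and -0.96 (adjusted p = 0.0034), under the fold threshold, without replicate 2 of 80 µg at 12 h.

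At 24 h Izumo1r had 369, 370 and 525 with 0.8 µg and 261, 235 and 263 with 80 µg, all above the control mice. The change from control was called with 0.8 µg (1.48 ± 0.22, adjusted p = 2.5e-10) and was under the fold threshold with 80 µg (0.76 ± 0.22, adjusted p = 0.00261). The doses did not overlap (-0.73 ± 0.21, adjusted p = 0.017), but the difference was -0.53 (adjusted p = 0.197) without replicate 3 of 0.8 µg at 24 h and its adjusted p was 0.0505 to 0.096 without any 1 mouse of 80 µg at 24 h. Its dose-by-time p of 0.0514 passed the threshold without replicate 3 of 80 µg at 12 h (0.00589), replicate 3 of 0.8 µg at 24 h (0.0301), replicate 1 or 2 of 80 µg at 4 h (0.0454 and 0.0499) or replicate 2 of 0.8 µg at 4 h (0.0487), and ranged up to 0.559 when other samples were left out.

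Nrp1, Nt5e and Izumo1r are also regulatory T cell genes, so the markers of those cells are given beside them. All 5 of 5 regulatory markers had counts in every group. Their summed level ran from 97.9 to 165 CPM in the control, from 191 to 193 at 4 h, 228 to 314 at 12 h and 401 to 743 at 24 h with 0.8 µg, and from 164 to 212, 184 to 207 and 230 to 262 with 80 µg. The sum is no level of regulatory cells, since its members went opposite ways at 4 h, and at 12 h with 0.8 µg. With 0.8 µg Tnfrsf18 (GITR, mean 37.7 CPM in the control and 145 CPM at 4 h) and Lrrc32 (1.68 and 19.4 CPM) were called higher than control and Foxp3 and Ikzf2 lower, and with 80 µg Tnfrsf18 (155 CPM) and Lrrc32 (4.61 CPM) were called higher and Ikzf2 and Gpr83 lower. At 12 h Tnfrsf18 was called higher with both doses (1.9 ± 0.17 and 1.86 ± 0.17). With 0.8 µg Lrrc32 was also called higher then (1.68 ± 0.52) and Foxp3 lower, and Ikzf2 (1 ± 0.2) was not called. At 24 h Foxp3, Ikzf2 and Lrrc32 were called higher with both doses, and Tnfrsf18 with 0.8 µg only. Gpr83 was called at neither of these times (0.24 ± 0.44 and -0.17 ± 0.44 at 24 h).

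Foxp3, which defines regulatory T cells, was above 0 in all groups. Its normalised counts were 56.7, 14.2 and 45.7 in the control and 3.03, 6.59 and 2.16 with 0.8 µg and 17.4, 14.5 and 21.4 with 80 µg at 4 h (dose difference 1.89 ± 0.58, adjusted p = 0.0118). At 24 h Foxp3 had 75.9, 48.5 and 193 with 0.8 µg, and the mouse with 193 was also the one with the highest Nrp1, Nt5e and Izumo1r. Against control Foxp3 was called in the direction Nrp1 took with 0.8 µg at 4 h (-2.94 ± 0.57, adjusted p = 1.73e-06), with 0.8 µg at 12 h, where it averaged 11.5 ± 8.42 (-1.57 ± 0.5, adjusted p = 0.00417), and at 24 h with 0.8 µg (1.38 ± 0.46, adjusted p = 0.0116) and with 80 µg, where it averaged 92.9 ± 12.1 (1.2 ± 0.46, adjusted p = 0.0293). With 80 µg at 4 h Foxp3 lay below the mean of the control, at 17.8 ± 3.47 against 38.9 ± 22.1 (adjusted p = 0.0563), whereas Nrp1 lay above it. At 12 h the Foxp3 dose difference was 0.88 ± 0.5 (adjusted p = 0.384), and with 80 µg Foxp3 was again below the control mean (-0.69 ± 0.48, adjusted p = 0.226).

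Ikzf2, which encodes Helios, was called lower than control at 4 h with 0.8 µg (-1.53 ± 0.22, adjusted p = 4.42e-11) and with 80 µg (-1.15 ± 0.22, adjusted p = 3.36e-07), where Izumo1r was also lower. It averaged 396 ± 30 with 0.8 µg and 121 ± 17.9 with 80 µg at 12 h (-1.69 ± 0.2, adjusted p = 4.24e-14) and 1450 ± 386 and 584 ± 52 at 24 h (-1.3 ± 0.19, adjusted p = 3.03e-09), with the control at 196 ± 73.3. The part of regulatory T cells in the values of Nrp1, Nt5e and Izumo1r was not tested.

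**Figure D4:**
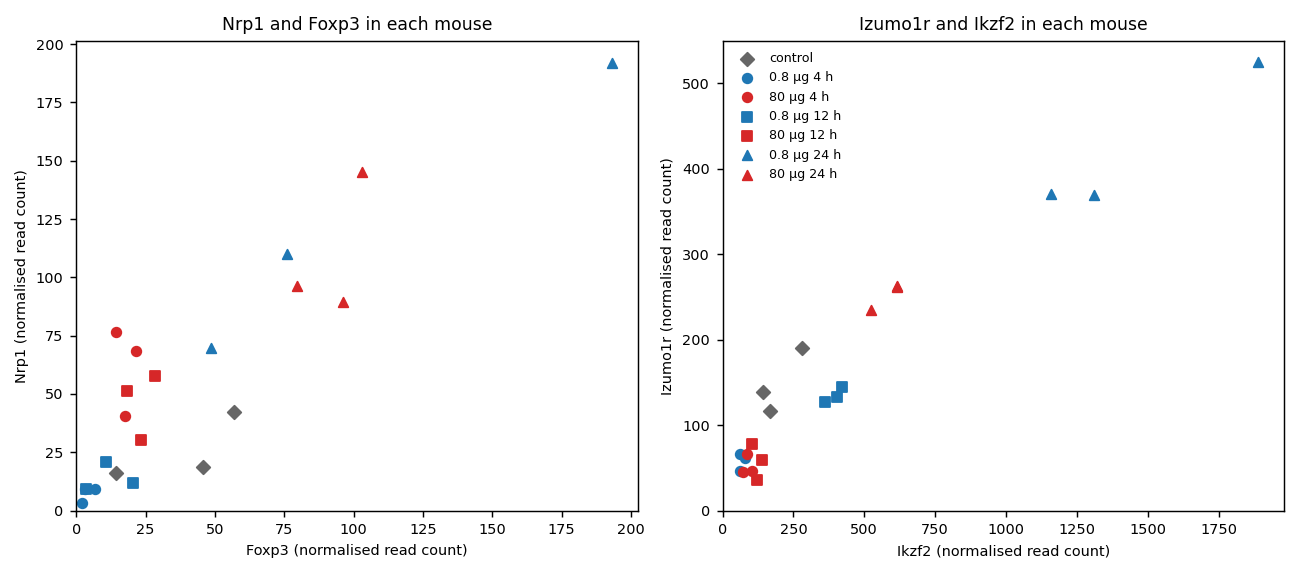
Normalised read counts in each of the 21 mice, Nrp1 against Foxp3 on the left and Izumo1r against Ikzf2 on the right, all axes from 0; colours mark dose (grey for control) and shapes the time. The highest value of each of the 4 genes was that of a 24 h mouse, and the 80 µg mice at 4 and 12 h had 30.1 to 76.5 counts of Nrp1 at 14.5 to 28.3 counts of Foxp3.

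The kin of the surface proteins and of Ndrg1 were listed as 16 genes, 12 of them over the count limit. Between doses 0 of the 9 tested were called at 4 h and at 24 h, and 1 of 9 at 12 h, beside 5.85%, 1.56% and 2.79% of all genes. By edgeR the counts were also 0, 0 and 1, and 1, 1 and 2 had an unadjusted p under 0.05. The called gene was Dpp4, the surface peptidase CD26, with 27.1 ± 6.25 for 0.8 µg and 10.1 ± 8.04 for 80 µg (-1.42 ± 0.38, adjusted p = 0.0048).

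Ndrg1 gave a short, high peak. The control mice had 23.7, 42.6 and 35.7, and at 4 h the mice had 346, 422 and 324 with 0.8 µg and 459, 396 and 380 with 80 µg. Both doses were far above the control and overlapped each other. Ndrg1 was 10.7-fold higher than control with 0.8 µg (3.37 ± 0.28, adjusted p = 1.87e-32) and 12.1-fold higher with 80 µg (3.54 ± 0.28, adjusted p = 4.14e-36). The unshrunken 95% interval of the dose difference was -0.29 to 0.65.

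By 12 h Ndrg1 was at 18.6, 33.8 and 10.6 with 0.8 µg and at 12.8, 14.7 and 11.7 with 80 µg. The fall from 4 h was 17.3-fold and 31.6-fold (adjusted p = 7.77e-41 and 2.2e-52). The high dose was then called below control (-1.32 ± 0.34, adjusted p = 0.000293), and the low dose was not (-0.61 ± 0.32, adjusted p = 0.0958), except without its replicate 2 (-1.12, adjusted p = 0.00529). The dose difference of -0.7 ± 0.35 at 12 h had an adjusted p of 0.265. The dose-by-time adjusted p of Ndrg1, 0.174 with all samples, was 0.0325 without replicate 3 of 0.8 µg at 12 h and 0.0314 without replicate 3 of every group. It ranged up to 0.975 when other samples were left out.

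At 24 h Ndrg1 had 17.5, 5.59 and 22.7 with 0.8 µg and 24.1, 23.5 and 16 with 80 µg. The low dose was called below control (-1.12 ± 0.34, adjusted p = 0.00365), but not without its replicate 2 (-0.72, adjusted p = 0.0953) or without control replicate 2 (-0.92, adjusted p = 0.0479, under the fold threshold). This call was also lost with only the 6 samples compared (-1, adjusted p = 0.0773) and without replicate 2 of every group (-0.51, adjusted p = 0.379).

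Between successive times, 2 of 8 genes were called from 4 to 12 h with 0.8 µg (Ndrg1 lower, Izumo1r higher), beside 20.5% of all genes. With 80 µg it was 3 of 8 (Ndrg1 and Cblb lower, Dgka higher), beside 24.8%. From 12 to 24 h, 5 of 8 were called with 0.8 µg, Cblb lower and Dgka, Nrp1, Izumo1r and Nt5e higher, beside 26.6% of all genes. With 80 µg the 4 calls were those of Dgka, Nrp1, Izumo1r and Nt5e, all higher, beside 27.2%. That of Nrp1 (1.2 ± 0.38, adjusted p = 0.00538) was under the fold threshold without replicate 3 of 80 µg at 12 h (0.99) and missed both thresholds without replicate 1 of 80 µg at 24 h (0.95, adjusted p = 0.0572). The largest of these steps by fitted log2 change were the falls of Ndrg1 from 4 to 12 h, at -3.98 ± 0.29 and -4.86 ± 0.31, and the rise of Nt5e from 12 to 24 h with 0.8 µg, at 4.35 ± 0.68, which started from 4 counts in 3 mice. Izumo1r from 4 to 12 h with 0.8 µg was 1.2 ± 0.24 (adjusted p = 6.34e-06).

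The list of 10 transcription factors and enzymes known in anergy was set beside the members. Between doses 2 of 9 tested were called at 4 h, 2 of 9 at 12 h and 1 of 9 at 24 h, beside 5.85%, 2.79% and 1.56% of all genes. Egr2, a zinc finger factor that acts on Cblb and other brakes, was called at each time and turned direction: 102 ± 24.1 with 0.8 µg and 207 ± 52.3 with 80 µg at 4 h (1 ± 0.31, adjusted p = 0.013), 17.8 ± 6.17 and 58.7 ± 14.3 at 12 h (1.63 ± 0.35, adjusted p = 0.000216), and 16.2 ± 8.38 and 3.11 ± 2.03 at 24 h (-2.03 ± 0.48, adjusted p = 0.00132). Bhlhe40, a repressor of Il10, was higher with 80 µg at 4 h (1.16 ± 0.29, adjusted p = 0.000993). Nr4a1 was lower with 80 µg at 12 h (-2.19 ± 0.38, adjusted p = 6.1e-07). Egr3 averaged 18.9 ± 7.94 with 0.8 µg at 4 h and 2.51 ± 2.34 with 80 µg, and had no adjusted p there.

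The genes most like each member over the 21 mice, by Pearson's r of the deposited log2 values among 8753 genes, are given as a description, since the mice share groups. For Cblb they were Stat3 (0.956) and Zdhhc5 (0.941), for Dgka Stk4 and Arhgap45 (0.996 each), and for Dgkz Ezr (0.932) and Limd2 (0.913). For Itch they were Ncoa2 (0.879) and Scai (0.869). For Nrp1 they were Cxcr3 (0.896) and Rgs1 (0.892), for Izumo1r Ikzf2 (0.936) and Pnrc2 (0.922), and for Ndrg1 Tnfaip3 (0.972) and Cd69 (0.96). Nt5e, with a mean under 20 normalised counts, was left out. Among the members Cblb and Dgka ran in opposite directions (-0.93), as did Cblb and Dgkz (-0.81), and the 2 kinases ran together (0.79).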

How the data were processed

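CD4+ T cells of 21 Tg4 Tiger Nr4a3-Tocky mice (7 groups of 3) were profiled by QuantSeq 3′ mRNA sequencing. Per the labels and methods, the authors trimmed reads, aligned them to mm10 with STAR 2.5.2a and counted them with HTSeq. The deposited values are raw counts per gene and DESeq2 rlog values on a log2 scale; the annotation release, strand setting and use of molecular identifiers are not given in the sources used here.

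Genes with at least 10 counts in all were fitted with DESeq2 1.42.0 (R 4.3.3), with 1 coefficient per group over the 21 samples, normal-prior shrinkage, and Benjamini-Hochberg adjustment over all genes tested. The dose-by-time term was tested by likelihood ratio on the 18 immunised samples. Alternatives were edgeR 4.0.16 quasi-likelihood, other filters, the 6 samples compared alone, a replicate block and left-out samples. Fits were tested on simulated data, where the likelihood ratio test recovered fewer changed genes than first required and made false calls at more than its nominal rate; the requirement was then relaxed to genes with large changes, so dose-by-time calls near the threshold are less certain than their adjusted p. The log2 values served only for likeness. Named genes were all members, listed kin called between doses, Rasgrp1, Foxp3, Ikzf2, Egr2, Egr3 and, for members averaging 20 normalised counts or more, the 2 genes most like each. Markers of the sorted cells, of regulatory T cells and of other cell types, Gm42418 and genes overlapping a member were also named. The members and lists were chosen with earlier results of these data known.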

Additional observations from a re-analysis of the deposited data

Results flagged for a closer look

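The effect of dose differed between 4, 12 and 24 h, by the dose-by-time test itself, for 4 genes. When samples were left out, the adjusted p of this test was up to 0.0422 for Cblb and 0.0348 for Nrp1. For Dgkz and Dgka it was up to 0.0098 and 4.62e-06. The span between the lowest and the highest dose effect (80 µg against 0.8 µg, shrunken log2) was 3.06 for Nrp1, from 2.89 at 4 h to -0.17 at 24 h. It was 1.98 for Dgka, with -1.52 at 4 h, 0.46 at 12 h and 0.44 at 24 h, the 12 h value from 0.22 to 0.64 when samples were left out. It was 1.35 for Cblb, with 0.77 at 4 h and -0.58 at 12 h, the latter from -0.9 to -0.33 when samples were left out and with an adjusted p of up to 0.78, and 1.18 for Dgkz, which was lower with the high dose by -1.32 at 4 h and by -0.14 at 24 h. Since the sorting gate changes with time, these are differences between time and gate together.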

How the results depend on the processing

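Depth limits Rnf128 at every time and Nt5e at 4 and 12 h. Of the recomputed counts of members, 221 stayed within 1.5 times the reported count, those by edgeR, without a filter, with at least 1 CPM in 3 samples, with unshrunken fold changes and with the replicate block among them. The other 12 follow, and the cause was not tested. By adjusted p alone, members called were 4 and 2 between doses at 12 and 24 h, 5 with 0.8 µg at 12 h and 5 at 24 h and 4 with 80 µg at 24 h against control, 4 and 5 from 4 to 12 h with 0.8 and 80 µg, and 7 from 12 to 24 h with 80 µg. Of all genes, 6.27% and 5.93% passed adjusted p alone between doses at 12 and 24 h. Against control 53.1% and 36% passed with 0.8 µg at 12 and 24 h, and 39.1% with 80 µg at 24 h. From 4 to 12 h the shares were 39.1% and 42.9% with 0.8 and 80 µg. From 12 to 24 h with 80 µg the share was 44.7%. With only the 6 samples compared, 1 was called between doses at 12 h, beside 1.23% of all genes. When samples were left out the count was 0 to 2 between doses at 12 h, beside 1.6% to 2.9% of all genes. From 4 to 12 h with 0.8 µg it was 1 to 2, beside 16.9% to 21%.

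Values that changed sign when samples were left out were not called with all samples. Between doses they ranged from -0.12 to 0.08 for Itch, -0.31 to 0.06 for Izumo1r and -0.18 to 0.72 for Nt5e at 4 h, and from -0.05 to 0.97 for Ndrg1, -0.46 to 0.4 for Nrp1 and -0.64 to 0.02 for Nt5e at 24 h. Against control they ranged from -0.18 to 0 for Dgkz at 4 h, -0.28 to 0.07 for Izumo1r at 12 h and -0.08 to 0.16 for Cblb at 24 h with 0.8 µg, and from -0.03 to 0.05 for Dgkz and -0.23 to 0.44 for Nt5e at 24 h with 80 µg. Between times they ranged from -0.1 to 0.31 for Cblb, 0 to 1.48 for Nt5e (both 4 to 12 h) and -1.14 to 0.39 for Ndrg1 (12 to 24 h) with 0.8 µg, where -1.14 without replicate 3 of every group was a call (adjusted p = 0.0187) and 0.39 without replicate 2 was not, and from -0.17 to 0.37 for Izumo1r (4 to 12 h) with 80 µg. Itch between doses at 4 h was 0 with only the 6 samples compared. Among the 8 genes, single calls were also lost without replicate 1 of every group for Izumo1r at 4 h (-0.96) and from 4 to 12 h with 0.8 µg (0.99).

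Over all genes, calls between doses at 4, 12 and 24 h were 635, 311 and 151. By adjusted p alone they were 1301, 699 and 573. With only the 6 samples they were 145 at 12 h and 83 at 24 h, and without replicate 1 of every group 413, 179 and 83. The dose-by-time count was 1035, and 368 and 471 without replicates 1 and 2. Scaling to CPM moved the median gene by up to -0.24 against control (80 µg at 24 h), and TMM by at most 0.04. With 80 µg at 24 h, Dgkz stood at -0.24 and Cblb at 0.14 from control on CPM.

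The samples share only a replicate number: in no comparison did all 3 same-numbered pairs correlate over 0.1, and every sample matched its own number best (3 of 3) only from 4 to 12 h with 80 µg. With the replicate block, 5 members instead of 4 passed the dose-by-time test, as Izumo1r reached an adjusted p of 0.03 (0.0457 with at least 1 CPM in 3 samples), and calls over all genes between doses were 611, 288 and 138.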
